A study of Homo sapiens with 9 samples.

Results

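The untreated libraries of the EPC2 line describe the cells before any transfection. EPC2 is labelled as a line of normal squamous epithelial cells of the human esophagus, grown in keratinocyte serum-free medium with bovine pituitary extract and epidermal growth factor (a basal epithelial medium is also named) and used within a few passages of receipt. The members were taken by label alone: the 3 libraries named as untreated controls, out of 9 in the series. The other 6 libraries, 3 given an empty vector with the lipid reagent Lipofectamine 2000 and 3 given a FOXF1 plasmid in the same way, come from the same line and enter only where a gene is stated to have no read in them. All 3 untreated libraries carry the genotype label control, no allele or agent is listed for them, and how the line was immortalised is not given in the sources used here. No group is contrasted with another below, so no test was run, and errors are standard deviations over the 3 libraries.

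Stratified squamous epithelium, such as that of the esophagus, rests on basal cells that carry the transcription factor p63 (gene TP63) and the keratin pair 5 and 14, and its upper layers switch to keratins 4 and 13 and to proteins of the cornified envelope. Simple epithelia, a single layer of cells, use keratins 8 and 18 with 7 or 19. Mesenchymal cells such as fibroblasts carry the intermediate filament vimentin and secrete fibrillar collagens. HOX genes record position along the body axis, low-numbered paralogs toward the head and high-numbered ones toward the tail.

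Totals were 39973289, 39902108 and 37115645 counts in untreated replicates 1, 2 and 3. Levels are given as TPM, read counts divided by the length of a gene's annotated exons and scaled so that every library has the same total, so that genes of different length can be set side by side. A gene was called expressed at or above 1 TPM in all 3 libraries. By that rule 10995 of 56591 genes with a length were expressed (19.4%), among them 9569 of 19657 protein-coding genes (48.7%), and 4208 protein-coding genes (21.4%) had no read in any untreated library. The median protein-coding gene stood at 1.08 TPM. A gene without a read in any of the 3 could still have a level of up to 0.0256 CPM (counts scaled to the library total, without a length), taking 3 counts as the limit over the pooled 116991042 counts. Limits and intervals of this kind hold counting error of the pooled reads alone. They leave out the variation between libraries, and several reads can stem from 1 molecule. In RNA pooled from many cells, fewer cells of a type and less RNA per cell cannot be told apart.

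Mitochondrially encoded transcripts took a large share of every library. The 13 protein genes of the mitochondrial genome, all subunits of the respiratory chain or of ATP synthase, took 21.6%, 20.7% and 17.9% of the counts in replicates 1, 2 and 3, a mean of 20.1% ± 1.93 (SD, n = 3). Because these genes are short, the same reads made up 50.5% ± 3.14 of all TPM, from 47.0% in replicate 3 to 52.9% in replicate 1. The highest of them, MT-CO2 (a subunit of cytochrome c oxidase), held 2131000, 2037830 and 1486731 reads. The lowest, MT-ND6, the member encoded on the other strand, held 7915, 6357 and 3991 reads. Replicate 3 was thus the lowest library for both genes. Every nuclear TPM below is diluted by this share, and when mitochondrial genes were left out of the total the number of expressed genes was 12901.

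**Figure D1:**
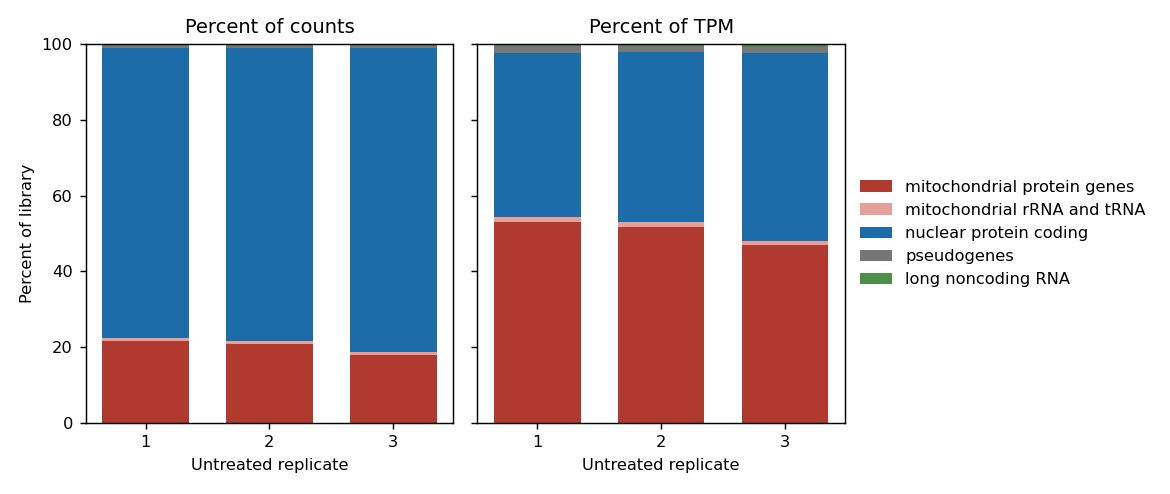
Stacked bars give the percent of counts (left) and of TPM (right) held by each class of gene in the 3 untreated replicates. Mitochondrial protein genes (dark red) hold 17.9% to 21.6% of counts but 47.0% to 52.9% of TPM.

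The nuclear genes at the top of the list serve the cytoskeleton, glycolysis, iron storage and translation. TMSB10 (thymosin beta 10, which binds actin monomers) led with 10147, 9642 and 11903 TPM in replicates 1, 2 and 3. GAPDH followed at 8470, 8626 and 8379 TPM and FTL (ferritin light chain) at 7193, 7643 and 9384 TPM. On this scale these 2 overlapped while TMSB10 was higher than both in every library. That order depends on the exon lengths used, 496 bases for TMSB10, 878 for FTL and 2981 for GAPDH. In read counts, without a length, both GAPDH and FTL were above TMSB10 in every library. GAPDH held 479618, 477799 and 404104 reads and TMSB10 95605, 88869 and 95514. Of the 30 highest nuclear protein-coding genes, glycolysis contributed GAPDH, ENO1 (enolase; 4711 ± 114 TPM), ALDOA (aldolase; 3302 ± 164), TPI1 and PKM. The actin system contributed TMSB10, ACTB (3971 ± 510), ACTG1 (3651 ± 227) and PFN1 (profilin), and the microtubule system TUBB. Ferritin was present with both chains, FTH1 at 2944 ± 634 TPM beside FTL. Ribosomal proteins and the elongation factor EEF2 (2498 ± 302 TPM) filled much of the rest, with RPL8, RPS2, RPS18, RPL7A, RPLP1, RPL19, RPS12, RPLP0 and RPL13A between 1447 ± 137 (RPL13A) and 3830 ± 300 TPM (RPL8). Others among the 30 were LGALS1 (galectin 1, a lectin abundant in mesenchymal cells), MT2A (a metallothionein), UBB (ubiquitin), SLC25A6 (a mitochondrial ADP/ATP carrier), PPDPF, IFITM3 (an interferon-inducible membrane protein) and TIMP1 (a secreted inhibitor of matrix metalloproteinases; 1445 ± 102 TPM).

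Counts were concentrated in few genes. The 10 highest genes of each library held 20.9% ± 1.87 of its counts, the 100 highest 40.3% ± 1.80 and the 1000 highest 69.4% ± 1.08. Mitochondrially encoded genes weigh on these shares, which without them were 8.34%, 26.2% and 61.7%. Cytosolic ribosomal protein genes held 7.95% ± 0.223. Long noncoding RNAs held 0.459% ± 0.0137, and 663 of 14076 were expressed. The highest of these with a gene name were LRRC75A-AS1 (108 ± 17.6 TPM), VPS9D1-AS1 (85.6 ± 5.38), SNHG17, SNHG19 and GAS5 (45.0 ± 2.56), of which SNHG17, SNHG19 and GAS5 are hosts of small nucleolar RNAs.

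The markers of the lineage named in the label were missing in part. TP63 (ENSG00000073282; chromosome 3, 189631416 to 189897279, plus strand, GRCh38) had 0 reads in each of the 3 untreated libraries, and also in each of the other 6. KRT5, the basal keratin that pairs with KRT14, had 19, 9 and 8 reads, which pooled to 0.308 CPM (exact 95% interval 0.216 to 0.426). KRT14 had 2, 1 and 1 reads, or 0.0342 CPM (0.00932 to 0.0875), and KRT15 had 4, 11 and 2. KRT4 had 0, 1 and 4 reads and KRT13 had none, so both keratin pairs of the esophageal squamous layers were at or near 0. SOX2, a transcription factor of the basal esophagus, had none either. TP73, the nearest relative of TP63, was present with 624, 683 and 737 reads, or 5.68 ± 0.962 TPM, a gene singled out after its values were seen. The levels of these markers go against the label of squamous cells, while other basal genes, given below with their whole list, were expressed. The cells are called here by their label and their leading genes, without a new cell type name.

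Zero counts could in principle arise where reads cannot be told from those of another gene. Every 50-base word of the TP63 transcript examined, 4860 in all, was absent from the annotated transcripts of other genes, and for KRT5 the share was 96.0%. For KRT14 it was 76.2%, since this gene shares long stretches with KRT16 and KRT17, its neighbours on chromosome 17. The opening 60 coding bases of the 3 genes show how close they are. They are given 5′ to 3′ from the GENCODE 29 transcripts on the minus strand of GRCh38, with capitals at positions where a gene differs from KRT14:
KRT14: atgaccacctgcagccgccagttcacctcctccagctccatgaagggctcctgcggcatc
KRT16: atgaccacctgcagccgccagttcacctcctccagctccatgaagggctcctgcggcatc
KRT17: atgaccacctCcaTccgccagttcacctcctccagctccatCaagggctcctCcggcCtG
These windows lie on chromosome 17 at 41586775 to 41586834 (KRT14), 41612629 to 41612688 (KRT16) and 41624450 to 41624509 (KRT17). KRT14 and KRT16 are identical over this window, whereas KRT17 differs at 6 positions. Over their whole coding sequences KRT14 is 88.6% identical to KRT16 and 84.7% to KRT17. Reads were still assigned to the other members: KRT17 held 861, 951 and 890 reads and KRT16 held 52, 79 and 44. Level and sequence together place KRT17, a keratin of activated and basal keratinocytes, at 16.1 ± 1.56 TPM, KRT16 at 1.31 ± 0.355 TPM and KRT14 near 0.

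The squamous lists split between genes that were expressed and genes that were silent. Of 20 basal genes 11 were expressed, with a median of 3.70 TPM, against 48.7% and 1.08 TPM over all protein-coding genes. S100A2, a calcium-binding protein of basal keratinocytes, was the highest at 162, 154 and 179 TPM. DLK2 stood at 25.7 ± 2.36 TPM, ITGB4 (integrin beta 4 of the hemidesmosome) at 20.2 ± 2.48, PERP at 8.50 ± 1.30, CDH3 (P-cadherin) at 7.73 ± 1.39 and PAX9, a transcription factor of the foregut, at 5.07 ± 0.336. Beside TP63 and SOX2, the hemidesmosomal collagen COL17A1 (4, 2 and 5 reads) and TRIM29 (2, 4 and 3 reads) were near 0. Among 40 differentiation genes 10 were expressed and 13 had no read, with a median of 0.0768 TPM. Those with no read were KRT13, KRT1, IVL (involucrin), LOR (loricrin), FLG (filaggrin), SPRR1A, SPRR1B, SPRR2A and SPRR3 (small proline-rich proteins), CRNN (cornulin), DSG1 (desmoglein 1), SPINK5 and RHCG. Those expressed were led by CSTB (cystatin B; 74.1 ± 7.39 TPM), CNFN (cornifelin; 51.1 ± 3.83), PPL (periplakin, which joins the cornified envelope to filaments; 23.5 ± 2.48) with its partner EVPL (envoplakin), KRT10 (19.7 ± 3.42), ECM1, KLF4 (8.55 ± 0.979) and EMP1. Several of the expressed genes of this list, such as CSTB, are also made by cells outside squamous epithelium.

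**Figure D2:**
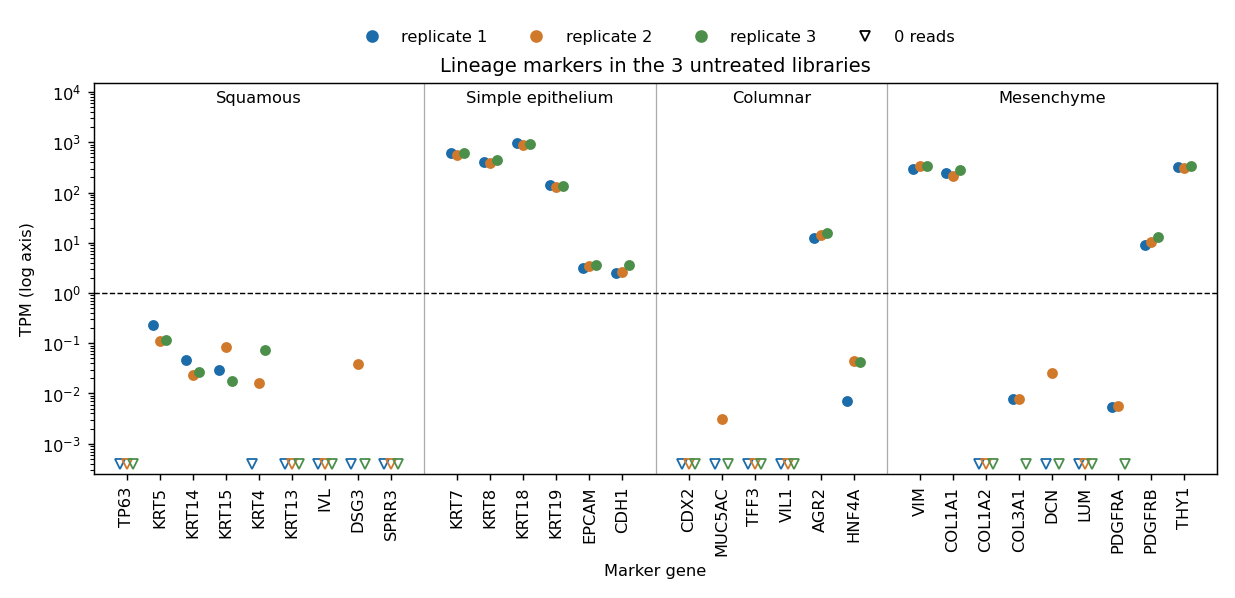
Each point is the TPM (log axis) of a marker in untreated replicate 1, 2 or 3, with open triangles for 0 reads and a dashed line at 1 TPM. The 9 squamous markers plotted, a chosen subset of the squamous lists, lie below the line or at 0 reads, KRT7, KRT8, KRT18, KRT19, VIM, COL1A1 and THY1 lie above 100 TPM, and COL1A2 has 0 reads.

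Keratins of simple epithelium were instead abundant. KRT18 (chromosome 12, 52948871 to 52952901, plus strand) stood at 947, 867 and 905 TPM, rank 63 among nuclear protein-coding genes. KRT7 stood at 609, 566 and 610 TPM and KRT8 (chromosome 12, 52897187 to 52949954, minus strand) at 405, 394 and 449 TPM. KRT19 followed at 140, 131 and 135 TPM. The ranges of these 4 genes did not overlap, so their order on this scale was the same in every library. Within a library KRT18 was 2.34, 2.20 and 2.02 times KRT8. That ratio depends on the gene length used, since with the longest transcript in place of all exons KRT18 averaged 1145 TPM and KRT8 819 TPM. In read counts, without a length, KRT8 was above KRT7 in every library, and the ranges of KRT18 and KRT8 overlapped: 57903, 51839 and 47111 for KRT18 and 52927, 50366 and 49954 for KRT8. Both genes have many processed pseudogenes, 67 for KRT18 and 50 for KRT8 in the annotation. Reads assigned to them amounted to 0.725% ± 0.0841 and 1.01% ± 0.139 of those of the parent genes. Reads that match a parent and a pseudogene equally may have been dropped. Of the 50-base words of KRT18 56.6% were specific to it, against 96.3% for KRT8. Across annotated transcripts of either strand, words of KRT18 occurred in 45 other genes. Matches summed over all transcripts of a gene were most numerous for KRT8. That sum favours genes with many transcripts, so it does not place KRT8 above the pseudogenes in words shared. Genes on the opposite strand also cover 16.3% of the exon bases of KRT18 and 7.63% of those of KRT8.

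Over the whole keratin family, 9 of 56 genes were expressed, 19 had reads but stayed below 1 TPM in at least 1 library, and 28 had none. Of all protein-coding genes 48.7% were expressed and 21.4% had no read. KRT7, KRT8, KRT18 and KRT19 supplied 96.8% ± 0.226 of all keratin TPM. The others expressed were KRT80 (25.5, 23.1 and 26.4 TPM), KRT10, KRT17, KRT81 (2.87 ± 0.553 TPM) and KRT16. KRT80, KRT81 and KRT23 were singled out after their values were seen. KRT6A, a keratin of wounded and proliferating squamous epithelium, was just outside at 1.15, 1.23 and 0.781 TPM. KRT20, of intestinal and urothelial cells, had no read, and KRT23 had reads in replicate 2 only. The hair keratins KRT81 and KRT86 are close in sequence, and the split of reads between them is uncertain.

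Genes of epithelial adhesion and fate were expressed in 13 of 26 cases, close to the 48.7% of all protein-coding genes, with a median of 1.24 TPM. Of the adhesion molecules that define most epithelia, CDH1 (E-cadherin) stood at 2.55, 2.65 and 3.55 TPM and EPCAM at 3.22, 3.46 and 3.68 TPM. Both were expressed and above the median of the list. CDH2 (N-cadherin), at 8.94 ± 0.644 TPM, was above the highest CDH1 value in every library. GRHL2, a transcription factor that sustains epithelial identity, had no read. Of the epithelial splicing regulators, ESRP2 was at 4.75, 4.90 and 6.47 TPM and ESRP1 below 1 TPM in every library, at 0.738 ± 0.294. Junction and protease-inhibitor genes were higher, led by SPINT1 (46.8 ± 5.40 TPM), JUP (plakoglobin; 30.2 ± 2.44), PKP3 (plakophilin 3; 20.2, 16.8 and 22.9), CLDN1 (claudin 1; 14.4 ± 2.45), SPINT2, CLDN7 and DSP (desmoplakin; 5.45 ± 0.0717).

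Mesenchymal genes were the most completely expressed of the lineage lists. Of 30 genes of the mesenchymal state 25 were expressed (83.3%), with a median of 11.6 TPM. The values over all protein-coding genes were 48.7% and 1.08 TPM. VIM (vimentin; chromosome 10, 17228259 to 17237593, plus strand) stood at 299.5, 337 and 345 TPM, below KRT8 in every library at 0.740, 0.854 and 0.768 of its level. TPM2 (tropomyosin 2) was at 382 ± 39.8 TPM, CNN2 (calponin 2) at 222 ± 18.2, SPARC (a matrix glycoprotein) at 217 ± 22.5, AXL (a receptor tyrosine kinase) at 179 ± 17.2, LOXL2 (a collagen cross-linking enzyme) at 116 ± 11.2, with TGFBI at 129.6, 138 and 153 and CYR61 at 90.3, 84.8 and 109 TPM. Among the transcription factors of this state, TWIST2 was at 42.4, 39.5 and 42.4 TPM, FOXC2 at 19.2 ± 0.810, SNAI1 at 13.4 ± 1.90, TWIST1 at 7.06 ± 0.808 and SNAI2 at 5.72 ± 0.539. ZEB1 and ZEB2, repressors of CDH1, were below 1 TPM at 0.263 ± 0.111 and 0.0459 ± 0.0107, and PRRX1 had reads in replicate 2 only. For VIM, 24.4% of the exon bases are also covered by genes on the opposite strand, and the strand setting of the counting is not given in the sources used here.

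Fibroblast genes were expressed in 10 of 22 cases (45.5%), near the 48.7% of all protein-coding genes. Of the 2 chain genes of type I collagen only COL1A1 had reads. COL1A1 (chromosome 17, 50183289 to 50201632, minus strand) held 45144, 39148 and 44710 reads, or 242, 215 and 281 TPM. COL1A2 (chromosome 7, 94394561 to 94431232, plus strand), which encodes the partner chain of the usual heterotrimer, held 0 reads in all 3 and in the other 6 libraries. Per length, COL1A1 was at least 48856-fold higher, with COL1A2 set to 3 counts over the pooled untreated libraries. Every 50-base word of either transcript was specific to its gene. THY1 (CD90, a surface glycoprotein of fibroblasts) stood at 316, 307 and 341 TPM and was higher than COL1A1 in every library. Type VI collagen was also uneven, with COL6A1 at 195 ± 23.5 and COL6A2 at 93.7, 89.6 and 117 TPM. COL6A3 was lower, at 0.697, 0.863 and 0.866 TPM, but unlike COL1A2 it had reads in every untreated library. FBLN1 (fibulin 1) was at 124 ± 18.4 TPM, COL5A1 at 32.1 ± 2.78, PDPN (podoplanin) at 13.3 ± 1.42 and PDGFRB at 10.8 ± 1.91 TPM, whereas COL5A2, its type V partner, was at 0.486 ± 0.0846. LUM (lumican), POSTN (periostin), DPT and MFAP5 had no read. DCN (decorin) had 0, 6 and 0 reads, PDGFRA 1, 1 and 0, and COL3A1 (type III collagen) 1, 1 and 0. The list was thus split. COL1A2, COL3A1, LUM, DCN and PDGFRA were at or near 0, and COL1A1 and THY1 were at over 200 TPM. COL6A1, COL6A2, FBLN1, COL5A1 and PDGFRB were expressed as well.

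Columnar and Barrett-associated genes, the class the study's title is concerned with, were expressed in 5 of 33 cases, and 15 had no read. The share expressed was 15.2%, against 48.7% of all protein-coding genes. The expressed ones were MUC1 (a membrane mucin; 27.6 ± 1.89 TPM), AGR2 (an endoplasmic reticulum isomerase of secretory epithelium; 14.1 ± 1.46), FOXA1 (5.76 ± 0.632), SOX9 (5.12 ± 0.966) and FOXA3 (1.25 ± 0.258). GATA6 was at the boundary with 1.05, 0.982 and 1.60 TPM. CDX2, the intestinal regulator, had no read, and neither did VIL1, CDH17, TFF1, TFF2, TFF3, MUC5B, MUC6, AGR3, CLDN18, OLFM4, SPINK1, FABP1 and KRT20. MUC5AC had 1 read in the 3 libraries together and HNF4A had 12. For VIL1, 53.8% of the 50-base words were specific to it, the rest being shared only with USP37 on the opposite strand.

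**Figure D3:**
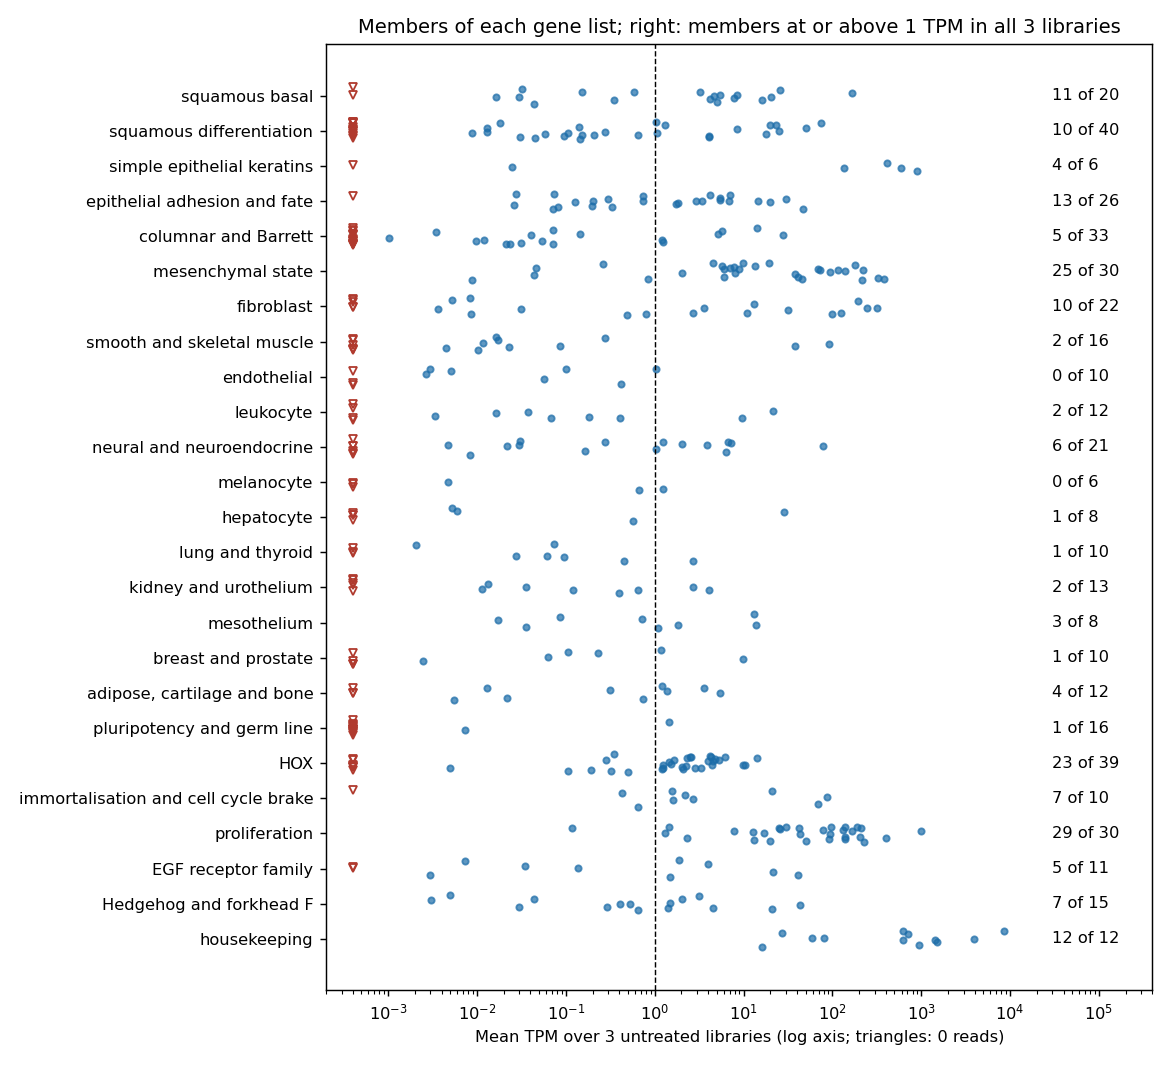
Each point is the mean TPM (log axis) of a list member over the 3 untreated libraries, triangles mark members with 0 reads in all 3, and the numbers at the right count members expressed. Proliferation (29 of 30) and mesenchymal genes (25 of 30) are mostly to the right of 1 TPM, and squamous differentiation (10 of 40) and columnar genes (5 of 33) mostly to the left.

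In each list of markers of other tissues most members were not expressed. The shares expressed ran from 0% (endothelial and melanocyte) to 37.5% (mesothelium), all below the 48.7% of all protein-coding genes. Of 10 endothelial genes none was expressed, the highest being TIE1 at 0.629, 1.31 and 1.16 TPM. Of 12 leukocyte genes CORO1A (21.5 ± 1.35 TPM) and CD14 (9.55 ± 1.47) were expressed, while PTPRC, CD3E, TYROBP and LYZ had no read. The smooth and skeletal muscle list had 2 of 16, TNNT1 (slow troponin T; 92.7 ± 10.5 TPM) and SMTN (smoothelin; 37.7 ± 2.30). Of 21 neural genes 6 were expressed, led by ENO2 (78.2 ± 3.14), SYP (7.15 ± 0.823) and NEFL (6.74 ± 0.901), with no read of SOX10 or NEUROD1. The hepatocyte list had SERPINA1 (alpha-1 antitrypsin; 28.5 ± 2.83 TPM) and no other of 8. None of 6 melanocyte genes, 1 of 10 lung and thyroid genes (PAX8; 2.67 ± 0.0818), 2 of 13 kidney and urothelial genes (UPK1A and PAX8), 1 of 10 breast and prostate genes (HOXB13) and 1 of 16 pluripotency and germ line genes (SALL4; 1.47 ± 0.229) were expressed. Of 12 adipose, cartilage and bone genes 4 were expressed, led by RUNX2 (5.39 ± 0.409), or 2 at a limit of 2 TPM. The mesothelial list had 3 of 8, BNC1 (basonuclin 1, also a gene of keratinocytes; 13.9 ± 1.36), PDPN and CALB2 (1.84 ± 0.381), with WT1 at 1.33, 0.942 and 1.04 TPM and MSLN at 0.713 ± 0.408.

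HOX genes were expressed across 3 of the 4 clusters, including the paralogs of the tail end. In all 23 of 39 were expressed (59.0%, against 48.7% of all protein-coding genes). By cluster these were 9 of 11 in HOXA, 7 of 10 in HOXB, 7 of 9 in HOXC and 0 of 9 in HOXD. Of the 8 genes of paralog groups 10 to 13 in clusters A, B and C, 7 were expressed and HOXC12 was at 1.96, 0.758 and 1.65 TPM. HOXC10 was the highest HOX gene at 13.5, 13.9 and 14.7 TPM, and HOXB13 stood at 8.61, 9.66 and 11.1 TPM. HOXB7 (10.4 ± 0.751 TPM), HOXA7 (6.21 ± 1.26), HOXB2 (5.33 ± 1.12), HOXC4 (4.75 ± 1.16), HOXB9 and HOXB4 followed. In HOXD, 6 genes had no read, and the highest, HOXD1, had 11, 14 and 12 reads. HOXB1 was the only member outside HOXD with no read. HOX genes lie in dense clusters with antisense transcripts, and for 5 of the 23 expressed genes over 20% of the exon bases are shared with another gene. The levels were modest, and at a limit of 2 TPM in place of 1 the number expressed was 15. Over genes of all kinds the same change of limit gave 9098 in place of 10995.

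**Figure D4:**
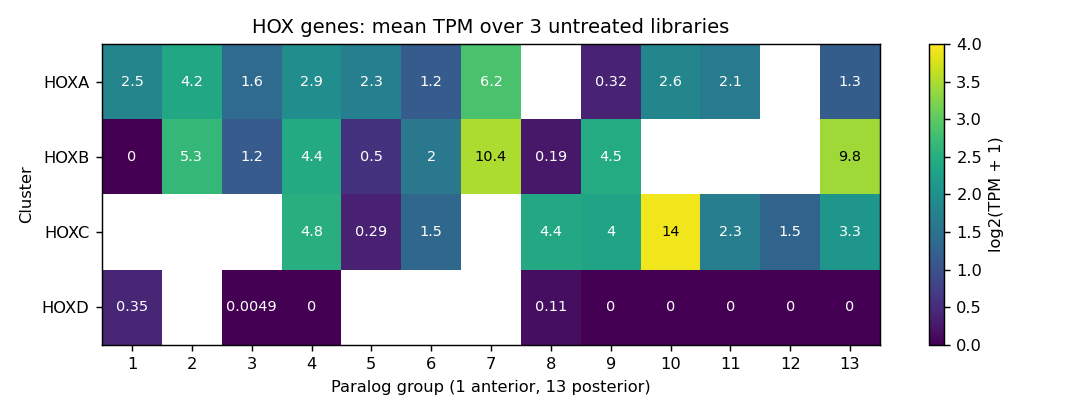
Cells give the mean TPM of each HOX gene over the 3 untreated libraries, with clusters as rows, paralog groups as columns and color on the log2(TPM + 1) scale; blank cells have no gene. HOXA, HOXB and HOXC carry values up to 14 TPM through group 13, and the HOXD row stays below 1 TPM.

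Genes of the cell cycle were nearly all expressed. Of 30 proliferation genes 29 were expressed (96.7%, against 48.7% of all protein-coding genes), with a median of 64.3 TPM, and CDK6 at 0.117 ± 0.0220 TPM was the exception. MYBL2, a transcription factor of the dividing cell, stood at 980, 956 and 1040 TPM, rank 53 among nuclear protein-coding genes. FOXM1, its partner in mitotic transcription, was at 397 ± 30.3 TPM, PLK1 (a mitotic kinase) at 228 ± 18.6, MCM2 (replication licensing) at 209 ± 20.8, AURKB at 203 ± 20.6, MCM7 at 191 ± 16.7, CCNB1 at 168 ± 22.3 and CCNB2 at 139 ± 15.3. Lower members of the same list were CDK1 (10.2, 13.4 and 15.3 TPM), CCNA2 (cyclin A2; 12.8 ± 1.85), BUB1 (7.81 ± 0.952) and CCNE1 (cyclin E1; 2.33 ± 0.259). Among brakes of the cycle, CDKN2A, which encodes p16 and ARF, stood at 65.0, 65.8 and 73.8 TPM. CDKN1A (p21) was at 20.9 ± 1.99 TPM and MDM2, a ubiquitin ligase, at 0.654 ± 0.0956 TPM. TERT, the catalytic part of telomerase, had 42, 42 and 24 reads, or 0.923 CPM pooled (0.757 to 1.11). TERC, its RNA part, had no read, and 81.0% of its exon bases are shared with another annotated entry; the libraries were also prepared from polyadenylated RNA.

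Genes that bear on the growth medium and on the plasmid used elsewhere in the study had these levels. EGFR, the receptor for the supplied growth factor, was at 23.0, 20.5 and 21.1 TPM, and ERBB2 was higher at 39.2, 37.6 and 46.6 TPM in the same libraries. Of 11 genes of the family 5 were expressed (45.5%, against 48.7% of all protein-coding genes), or 3 at a limit of 2 TPM, with AREG (amphiregulin) at 2.75, 4.05 and 5.21, ERBB3 at 1.88 ± 0.299 and HBEGF at 1.12, 1.69 and 1.70 TPM, and EREG and ERBB4 had no read. FOXF1, the forkhead factor carried by the plasmid, had 1, 0 and 0 reads, whereas its paralog FOXF2 was at 2.79, 2.96 and 3.78 TPM. Of 15 Hedgehog and forkhead F genes 7 were expressed (46.7%, near that same share), or 4 at a limit of 2 TPM. The 7 were SMO (the signal transducer; 43.6 ± 5.59 TPM), SUFU (an inhibitor; 21.1 ± 1.59), GLI3, GLI2 and GLI1 (the transcription factors; 4.59 ± 0.521, 2.01 ± 0.202 and 1.41 ± 0.422), FOXF2 and BMP4. The ligand SHH had 22, 19 and 35 reads and the receptor PTCH1 was at 0.532 ± 0.117 TPM, both below the limit.

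The 3 untreated libraries resembled each other in rank and still differed by more than counting error. Spearman's rho across the 10995 expressed genes was 0.987 to 0.989 for the 3 pairs, which describes genes of the same line and not independent replicates. The chi-square per degree of freedom was 8.60 for replicates 1 and 2, 23.2 for 1 and 3 and 17.2 for 2 and 3, so no library was a copy of another. The design text calls the samples biological triplicates, and the spread given here is that between these libraries. The common biological coefficient of variation was 0.0937 (edgeR). For a gene at 10 to 100 CPM the median coefficient of variation was 7.11%, at 100 to 1000 CPM 4.90% and from 1000 CPM 5.20%. VIM, KRT8, KRT18 and COL1A1 varied by 4.81%, 3.31%, 7.17% and 10.3%.

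The largest relative spread at 10 CPM or more was that of MT-TQ (a mitochondrial tRNA gene; 16.2, 10.9 and 6.52 CPM), AFMID (coefficient of variation 31.4%) and MT-ND6 (198, 159 and 108 CPM). MT-TQ and MT-ND6, both on the light-strand transcript of the mitochondrial genome, were high in replicate 1 and low in replicate 3. DPM1, ZCRB1, TSPYL1, G3BP2, BIRC6, NBAS and HS6ST1 completed the 10 most variable genes, with coefficients of variation from 25.4% to 28.8%. Replicate 1 was the lowest library for 7 of the 10 and replicate 3 for the other 3. The mitochondrial share of counts, encoded RNAs of all kinds together, was 22.4%, 21.6% and 18.6% in replicates 1, 2 and 3, and its part in these differences was not tested.

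**Figure D5:**
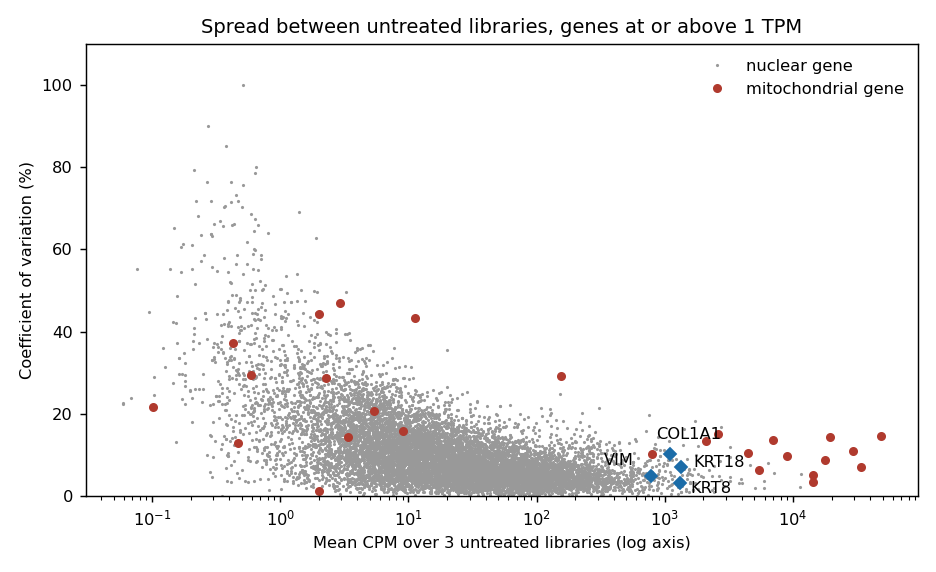
Each point is an expressed gene, with its mean CPM over the 3 untreated libraries (log axis) against its coefficient of variation in percent; red points are mitochondrially encoded and blue diamonds are KRT8, KRT18, VIM and COL1A1. The median spread falls from 13.2% at 1 to 10 CPM to 4.90% at 100 to 1000 CPM and is 5.20% from 1000 CPM. The 4 diamonds lie between 3.31% and 10.3%.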

How the data were processed

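RNA sequencing was read out as a table of 64253 Ensembl genes by 9 libraries of EPC2 cells, of which the 3 untreated ones were used here. Per the file headers, the authors deposited raw counts of reads, with no normalization. Tools listed in the submitters' processing notes are bcl2fastq, STAR 2.5.2b and HTSeq, with build GRCh38, and the labels' protocols name a stranded kit for polyadenylated RNA. Neither annotation release nor strand setting is given in the sources used here, so reads of overlapping genes may be split in ways the counts do not show.

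TPM were computed from the deposited counts with exon lengths of GENCODE 29 (GRCh38), which held 56591 of the gene identifiers; the rest held 0.0384% to 0.0402% of counts. Isoforms that are not expressed lengthen a gene's exons and lower its TPM. The common biological coefficient of variation came from edgeR 4.0.16 (R 4.3.3, TMM factors, filterByExpr) on the untreated libraries, and the TPM calculation was tested on simulated data. Other values were computed in Python 3.11.15. The 25 gene lists and the naming rule (the 30 highest nuclear coding genes, the 5 highest long noncoding RNAs, the 10 most variable genes and up to 8 members a list) were chosen with earlier results of these data known. Depth limits a gene with no read to 0.0751 to 0.0808 CPM in a single untreated library. No comparison between groups was tested. A few members of the lists are counted but not reported here by name.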

Additional observations from a re-analysis of the deposited data

How the results depend on the processing

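With a limit of 2 TPM the number of expressed HOX genes was 15 in place of 23. The shares held by the 10, 100 and 1000 highest genes were 8.34%, 26.2% and 61.7% without mitochondrial genes, and choosing the highest genes by TPM gave 38.0% and 65.9% for the 100 and 1000 highest. The common biological coefficient of variation was 0.0934 with RLE factors, 0.101 without a filter on low counts and 0.0932 without mitochondrial genes. With a replicate left out it ran from 0.0817 to 0.103, the lowest value being without replicate 1. The number of expressed genes, 10995, was 9098 at 2 TPM, 12811 at 0.5 TPM, 12024 at 1 CPM, 11075 with the longest transcript as length, 12901 without mitochondrial genes and 11866 by the mean of the 3 libraries. For squamous, simple keratin, adhesion, columnar, mesenchymal and fibroblast genes every setting stayed within 1.5 times the count given. The endothelial list had 1 and the melanocyte list 2 expressed members, in place of 0, at 0.5 TPM, at 1 CPM or without mitochondrial genes. The breast and prostate list had 2, in place of 1, under those same settings. At 2 TPM the adipose, cartilage and bone list had 2, the EGF receptor family 3, the Hedgehog and forkhead F list 4 and the pluripotency list 0. TPM of KRT8, KRT18, VIM and COL1A1 rose without mitochondrial genes in the total, to 862, 1886, 678 and 509. No paired analysis was possible because every value is a level within the untreated group alone and comes from no test.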
